A study of Mus musculus with 2 samples.

Results

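Periportal hepatocytes, the liver cells next to the portal vein, were taken here as barcodes that carried periportal marker transcripts and few or no pericentral ones. A barcode, which tags the RNA of 1 droplet, was a member when it held at least 1000 UMIs (unique molecular identifiers, counted RNA molecules), at least 3 UMIs summed over Ncam2, Sult5a1, Sds and Cryl1, and at most 1 UMI summed over the pericentral genes Slc1a2, Lgr5 and Slc22a3. The rule selected 193 of 3537 barcodes of at least 1000 UMIs in 2 mouse livers. There were 98 members among 1703 such barcodes in the control library (5.755%, exact 95% binomial interval 4.696% to 6.968%) and 95 among 1834 in the knockout library (5.18%, 4.211% to 6.295%).

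Each library came from the liver of 1 mouse. Both mice carried floxed Glul alleles (Glul f/f), which encode glutamine synthetase, were 11 weeks old and bore no tumor. The control mouse received an adeno-associated virus carrying GFP (AAV8-GFP), and the other, called GS_KO, received the same kind of virus carrying Cre recombinase (AAV8-Cre). Livers were digested with collagenase II 2 weeks after the virus, and the hepatocytes and the separately purified non-parenchymal cells were pooled before 10x Genomics 5-prime sequencing. The sources name the assay as both single-cell and single-nucleus, and give neither the promoter driving Cre nor the deleted exons. With 1 mouse per group there is no test between conditions. All intervals are 95% intervals that cover counting error only, not differences between mice, digestions or libraries.

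Hepatocytes differ along the axis from portal to central vein. Portal cells receive oxygen-rich and nutrient-rich blood and are known for amino acid breakdown, the urea cycle and gluconeogenesis. Cells around the central vein are known for glutamine synthesis, cytochrome P450 drug metabolism and bile acid synthesis, and their program depends on Wnt and beta-catenin signaling.

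The upstream sequence of the 3 of 5 zonal genes compared here whose levels in members differed most between the libraries is shown as context for the levels below. Hal encodes histidine ammonia-lyase, Etnppl ethanolamine-phosphate phospho-lyase and Hsd17b6 a hydroxysteroid dehydrogenase. Each line holds the 250 bases before the RefSeq start, on the strand of the gene, in build GRCm38.p6. The positions are chr10:93488518-93488767 (plus strand) for Hal, chr3:130617198-130617447 (plus strand) for Etnppl and chr10:128007612-128007861 (minus strand) for Hsd17b6. Capitals mark matches to the motifs searched.

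Hal: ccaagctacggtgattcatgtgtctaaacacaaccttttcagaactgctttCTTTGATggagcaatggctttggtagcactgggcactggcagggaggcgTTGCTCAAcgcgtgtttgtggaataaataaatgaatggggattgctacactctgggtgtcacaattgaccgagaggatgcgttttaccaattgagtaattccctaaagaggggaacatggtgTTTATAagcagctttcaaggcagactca

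Etnppl: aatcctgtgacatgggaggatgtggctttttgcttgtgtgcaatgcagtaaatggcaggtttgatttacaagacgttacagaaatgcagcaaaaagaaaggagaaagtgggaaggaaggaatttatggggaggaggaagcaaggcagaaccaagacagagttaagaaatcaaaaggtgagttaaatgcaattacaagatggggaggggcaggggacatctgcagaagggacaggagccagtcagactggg

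Hsd17b6: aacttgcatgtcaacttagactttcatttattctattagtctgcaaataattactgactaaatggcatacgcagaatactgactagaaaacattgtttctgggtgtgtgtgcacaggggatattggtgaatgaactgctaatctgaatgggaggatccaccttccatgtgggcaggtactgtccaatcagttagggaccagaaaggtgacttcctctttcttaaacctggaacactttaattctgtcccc

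The motifs, searched on both strands, were the TATA box (TATAAA), TCF/LEF (CTTTGAT), HNF4 (CAAAGTCCA), C/EBP (TTGCNNAA), E-box (CACGTG), cAMP response element (TGACGTCA) and D-box (TTATGTAA). Hal held the TATA box letters, read on the other strand, at bases 28 to 23 before the start. It held the TCF/LEF letters at bases 199 to 193 and TTGCTCAA, a C/EBP match, at bases 150 to 143. None of these letters occurred in the windows of Etnppl or Hsd17b6. Among 32851 promoters of the same length, 12.37% held the TATA box letters, 3.205% TCF/LEF, 9.564% C/EBP, 0.3835% HNF4, 6.021% the E-box, 1.546% the cAMP response element and 0.8188% the D-box. A match is a description of the letters, not evidence of binding.

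The libraries' members were chosen by different markers. In control members, Sds, the serine dehydratase that turns serine into pyruvate, gave 181 UMIs or 47.76% of the marker UMIs, and the adhesion molecule gene Ncam2 gave 108 or 28.5%. In GS_KO members Ncam2 gave 170 UMIs or 52.15%, and Sds gave 75 or 23.01%. Sult5a1, a sulfotransferase gene, gave 53 and 46 UMIs, and Cryl1, a sugar acid dehydrogenase gene, gave 37 and 35. These values chose the members and are a description.

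Most members sat close to the threshold. A sum of exactly 3 marker UMIs was held by 54 of 98 control and 69 of 95 GS_KO members, and the highest sum was 8 in both libraries. Just outside, 126 control and 151 GS_KO barcodes had a sum of 2 with at most 1 pericentral UMI. UMIs came from a single marker in 21 control and 18 GS_KO members. The pericentral markers were at 0 in 91 and 90 members. With every barcode thinned to 1000 UMIs, 70 control (4.11%) and 53 GS_KO barcodes (2.89%) met the rule.

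**Figure D1:**
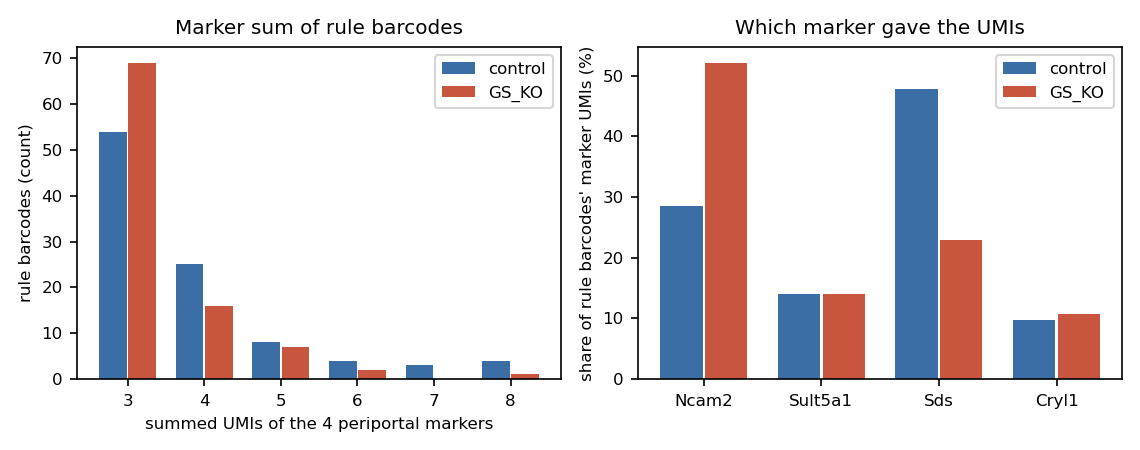
Left, number of rule barcodes by summed UMIs of the 4 periportal markers; right, share (%) of their marker UMIs from each marker, control in blue and GS_KO in red. Most members hold 3 marker UMIs, and Sds leads in control (47.76%) while Ncam2 leads in GS_KO (52.15%).

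Members resembled the other barcodes in depth. Median UMIs were 1198 in members and 1190 in other barcodes of the control library, and 1306 and 1205 in GS_KO. The median mitochondrial share was 3.223% and 3.179% in control and 1.972% and 2.156% in GS_KO. Malat1, a nuclear RNA, took a median of 2.101% and 1.871% of UMIs in control and 3.784% and 3.628% in GS_KO. Ribosomal protein genes, which mark cytoplasmic RNA, were lower in members for 48 of 67 measured in control (median log2 ratio -0.19) and 44 of 55 in GS_KO (median -0.32). A gene is called measured when at least 10 UMIs were expected in the members from its mean over the library. Leaving mitochondrial genes or Malat1 out of the CPM moved none of the 20 values of the 5 zonal genes outside their counting intervals. Nor did weighting the other barcodes to the members' UMI distribution. The same held for 100 values recomputed for other named genes, which were only those with a counting interval off 0. Mitochondrial genes and Malat1 took medians of 1.871% to 3.784% of UMIs, so leaving either out could shift a ratio only slightly. The part of the ribosomal protein difference was not tested. No doublets were removed, and 1 barcode sequence was shared between the libraries but was not a member in both.

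All 12 hepatocyte identity genes, which include albumin and apolipoproteins, were present in members, at a summed 57784 CPM (UMIs per 1000000 UMIs summed) in control and 50148 in GS_KO, against 59759 and 51444 in other barcodes. Free RNA, read from barcodes of 200 to under 400 UMIs, held them at 118567 CPM in control and 127128 CPM in GS_KO, so these genes alone do not set members apart from free RNA. That such barcodes hold only free RNA was not tested. Of 8 cholangiocyte markers, 7 were at 0 in control and 6 in GS_KO members, with Krt19, Krt7 and Epcam at 0 in both. The list summed to 7.76 CPM in control members (1 UMI) and 144.7 CPM in GS_KO members (20 UMIs), against 113.2 CPM in other GS_KO barcodes and 27.28 CPM in GS_KO free RNA. Of the 20 UMIs, 17 came from Pkhd1 and 3 from Sox9. Sinusoidal endothelial markers summed to 147.4 CPM in control members and 100.8 CPM in other control barcodes, and to 50.66 and 97.6 CPM in GS_KO. Stellate and fibroblast markers stood at 131.9 and 239.6 CPM in control and 123 and 221.7 CPM in GS_KO, and lymphocyte and plasma cell markers gave 1 UMI in the members of each library. Kupffer cell markers summed to 116.4 CPM in control and 354.6 in GS_KO members, against 89.61 and 555.7 in other barcodes. Free RNA held the Kupffer markers at 117.7 and 694.8 CPM. With barcodes of at least 3 UMIs of other cell types' markers left out, all 20 values of the 5 zonal genes stayed inside their counting intervals. So did all 100 values recomputed for other named genes, those with an interval off 0.

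Hal was higher in members than in other barcodes of both libraries, and far higher in GS_KO. Control members held 28 Hal UMIs, or 217 CPM, against 91.6 CPM in the other barcodes (log2 ratio 1.27, 0.62 to 1.82). GS_KO members held 150 UMIs, or 1086 CPM, against 398 CPM (1.45, 1.19 to 1.70). A Hal UMI was found in 24 of 98 control members (24.49%) and 71 of 95 GS_KO members (74.74%). Thinned to 1000 UMIs, the shares were 18.37% and 58.95%. Barcodes outside the rule with at least 3 UMIs of other cell types' markers showed Hal in 8.911% and 30.63% as deposited, at median depths of 1220 and 1232 UMIs. All barcodes outside the rule showed it in 10.65% and 31.17%. Free RNA also carries those markers, so such barcodes need not be other cell types. Free RNA held Hal at 163 CPM in control and 221 CPM in GS_KO.

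Gls2, the liver glutaminase that releases ammonia from glutamine, showed the opposite order between libraries. Control members held 44 UMIs, or 341.5 CPM, against 99.8 CPM in other barcodes (log2 ratio 1.79, 1.27 to 2.25). GS_KO members held 18 UMIs, or 130 CPM, against 90.7 CPM (0.56, -0.26 to 1.22). The GS_KO interval includes 0. Below the threshold Gls2 in GS_KO was 67.6 CPM (54.8 to 82.5) at a marker sum of 0, 129.7 CPM at 1 and 167.2 CPM (117.1 to 231.5) at 2. Inside the rule it was 109.2 CPM (54.5 to 195.4) at 3 and 186.9 CPM (75.2 to 385.1) at 4 or more. Without Ncam2 among the markers its log2 ratio in members was 1.49. Free RNA held Gls2 at 112 CPM in control and 96.2 CPM in GS_KO.

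Gldc encodes the decarboxylase of the glycine cleavage system. Its level was 248 CPM in control members from 32 UMIs, against 65.7 CPM in other barcodes (log2 ratio 1.93, 1.31 to 2.48). In GS_KO members it was 485 CPM from 67 UMIs, against 245.5 CPM (0.99, 0.59 to 1.35).

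Hsd17b6 had few control UMIs. It stood at 62.1 CPM in control members, from 8 UMIs, against 26.8 CPM elsewhere (log2 ratio 1.29, -0.07 to 2.29). In GS_KO members it stood at 412.5 CPM, from 57 UMIs, against 163.5 CPM (1.35, 0.91 to 1.74). Etnppl was nearly absent from the GS_KO library. Control members held 15 UMIs, or 116 CPM, against 60.4 CPM (0.99, 0.07 to 1.72), and GS_KO members held 1 UMI, or 7.24 CPM, against 3.47 CPM. Free RNA held Etnppl at 77.6 CPM in control and 12.3 CPM in GS_KO, so the GS_KO value is not above the free RNA.

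For some of the zonal genes the level followed the marker sum below the threshold. In GS_KO, Hal was 274 CPM in barcodes with a sum of 0, 533 at 1, 948 at 2, 1162 at 3 and 881 at 4 or more, and 130 CPM in barcodes with at least 3 pericentral and at most 1 periportal marker UMIs. In control, Gls2 was 77.6, 134, 227, 277 and 415 CPM over the same steps. Hsd17b6 in control was 28.3, 30.6 and 30.7 CPM at sums of 0, 1 and 2, and Etnppl in GS_KO was 3.48, 3.55 and 0 CPM, from 5, 2 and 0 UMIs, so no such order was seen in them below the threshold. Cyp2e1, a pericentral cytochrome P450, ran the other way, from 5740 to 3535 CPM in control and from 2725 to 854.5 CPM in GS_KO. Neighboring steps at sums of 3 and 4 or more had overlapping intervals for each of the 5 zonal genes.

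**Figure D2:**
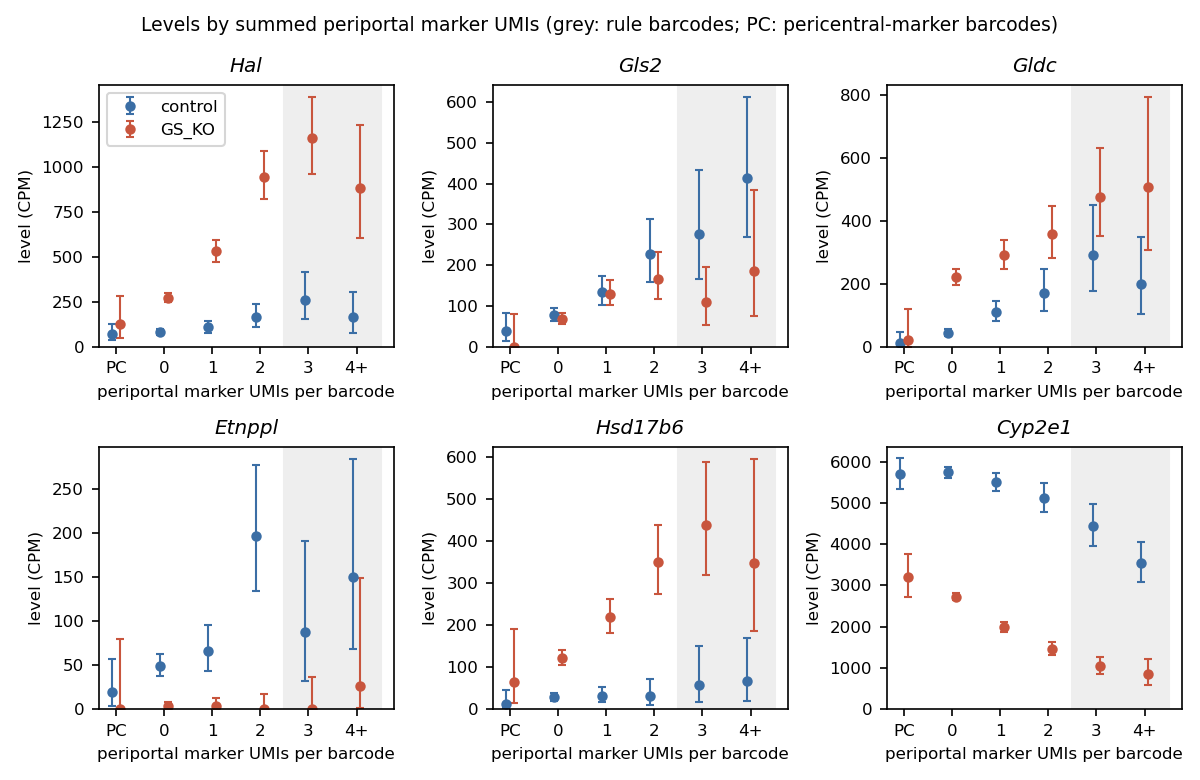
Level (CPM) of 6 genes by summed periportal marker UMIs per barcode, control in blue and GS_KO in red, with exact Poisson intervals; PC marks pericentral-marker barcodes and grey the rule barcodes. Hal in GS_KO is 274 CPM at a sum of 0 and 1162 CPM at 3, while Cyp2e1 is lower at higher sums in both libraries.

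Genes of amino acid breakdown were mixed inside the libraries. Of 25 measured, 16 were higher in members in control (median log2 ratio 0.13) and 18 in GS_KO (0.15), against medians of 0.02 and 0.03 over all measured genes. Past 1.5-fold higher were 5 in control, beside 7.11% of all 2293 measured genes, and 3 in GS_KO, beside 6.41% of 2465. The list includes Hal and Gls2, given above, so these counts are not separate from theirs. Past 1.5-fold lower were 0 in control, beside 7.81% of all genes, and 2 in GS_KO, beside 8.92%. Ftcd, which acts in histidine and folate metabolism, stood at 419 CPM in control members against 155 CPM elsewhere and at 470 against 360.5 CPM in GS_KO. Uroc1, the urocanase that follows Hal, stood at 295 against 149 CPM in control and 347 against 227 CPM in GS_KO. Agxt, an aminotransferase that clears glyoxylate, stood at 109 against 102 CPM in control and 72.4 against 152 CPM in GS_KO.

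Of 8 urea cycle genes measured, 6 were higher in control members and 5 in GS_KO members, with medians of 0.20 and 0.08. Past 1.5-fold were 1 higher in each library and 1 lower in GS_KO. Cps1, which fixes ammonia into carbamoyl phosphate, was 12230 CPM in control members against 9075 CPM (log2 ratio 0.43, 0.36 to 0.50) and 4205 against 3012 CPM in GS_KO (0.48, 0.36 to 0.60). Arg1, the arginase that releases urea, was 1676 against 1141 CPM (0.56) and 1397 against 825 CPM (0.76). Asl, argininosuccinate lyase, had a log2 ratio of 0.61 (0.24 to 0.94) in control and -0.04 (-0.83 to 0.59) in GS_KO. Car5a, a mitochondrial carbonic anhydrase, had 0.24 (-0.45 to 0.81) in control and -0.88 (-2.30 to 0.09) in GS_KO. Of the gluconeogenesis genes, 8 of 9 measured were higher in control members and 5 of 7 in GS_KO, beside 1187 of 2293 and 1307 of 2465 of all measured genes. None of the gluconeogenesis genes was past 1.5-fold higher in either library, and 1 was past it lower in GS_KO. Other genes known as periportal were higher in 8 of 12 and 10 of 13. Among them Hsd17b13, a lipid droplet enzyme, stood at 287 against 95.5 CPM in control and 818 against 405 CPM in GS_KO. Hsd17b6, given above, is also in this list.

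Pericentral genes outside the rule were lower in members without exception among those measured. The rule leaves out barcodes with over 1 pericentral marker UMI, and the other barcodes keep 121 control and 32 GS_KO pericentral-marker barcodes. The direction is thus partly set by the selection and is a description. All 21 of 21 measured were lower in control (median log2 ratio -0.67, 11 past 1.5-fold) and 16 of 16 in GS_KO (-0.80, 9 past 1.5-fold). Beside these, 7.81% and 8.92% of all measured genes were past 1.5-fold lower. Cyp2c29, a cytochrome P450, was 1591 CPM in control members against 2970 CPM (-0.90, -1.11 to -0.70) and 876 against 2147 CPM in GS_KO (-1.29, -1.57 to -1.03). Cyp7a1, which catalyses the first step of bile acid synthesis from cholesterol, was 435 against 1172 CPM in control and 79.6 against 149 CPM in GS_KO. Glul itself gave 1 UMI in the members of each library, so its loss could not be read in them. In the other barcodes it stood at 131 CPM in control and 33.0 CPM in GS_KO.

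**Figure D3:**
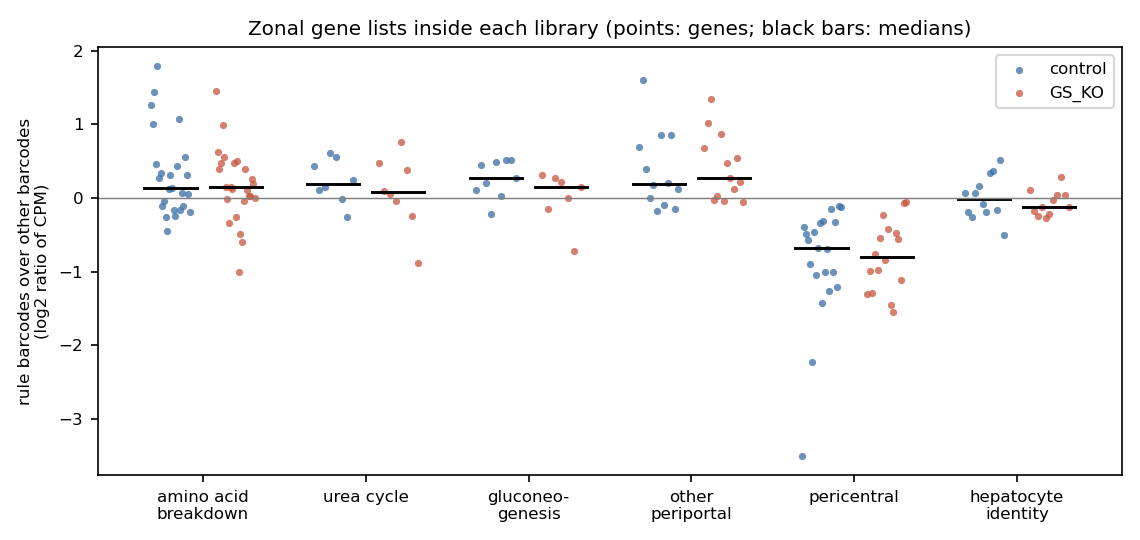
Log2 ratio of CPM, rule barcodes over other barcodes, for measured genes of 6 lists; points are genes, black bars medians, control in blue and GS_KO in red. Every measured pericentral gene lies below 0 (21 in control, 16 in GS_KO), and the periportal lists spread on both sides of 0.

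Over all genes measured in both libraries, those highest in the members of both libraries were Sfxn1, Hal, Hsd17b13, Ctcflos, Gas2, Tmem106b, Cyp2f2, Cers6, Naaladl2, Hc, Uroc1 and Smap1. Ctcflos is named as an opposite-strand transcript, and its value is uncertain because the labels do not state how strand was used in counting. Sfxn1, a mitochondrial serine carrier, stood at 233 CPM in control members against 72.6 CPM (log2 ratio 1.70, 1.06 to 2.25) and at 253 against 97.6 CPM in GS_KO (1.39, 0.82 to 1.89). Hc, complement C5, stood at 807 against 453 CPM and at 1527 against 1006 CPM. The lowest in both were Tenm3, Gna14, Celf2, Slc16a10, Ube2e2, Ahr, Adgrv1, Ttc7b, Cyp2c29, Gulo, Cyp2c54 and Rmdn2. Tenm3, a teneurin adhesion receptor, stood at 54.3 against 392.5 CPM in control and at 79.6 against 383 CPM in GS_KO. Over 2005 genes measured in both libraries, 20 were past 1.5-fold higher in members of both, of 131 in control and 107 in GS_KO. Past 1.5-fold lower in both were 35, of 140 and 164, and 9 were past 1.5-fold in opposite directions.

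Between the libraries, the UMIs of acute phase genes were higher in GS_KO members. Of 20 measured, 19 were higher and 14 past 2-fold (median log2 ratio 1.93), beside 13.7% of all 2753 measured genes past 2-fold higher. In the other barcodes 19 of 20 were also higher, with a median of 1.98. Free RNA bears on these levels: 15 of the 20 genes in control members and 16 of the 20 in GS_KO members stood at or below the free RNA of their library. Saa1, a serum amyloid, gave 2 UMIs in control members and 174 in GS_KO members (15.5 and 1259 CPM, log2 ratio 6.02, 4.47 to 9.40), and stood at 74.5 and 5017 CPM in free RNA. Saa1 and its close relative Saa2 can share reads, as can the Cyp2c genes, so their split is uncertain. Lcn2, which binds bacterial siderophores, gave 1 and 125 UMIs (6.29, 4.36 to 12.2), or 7.76 and 905 CPM, against 7.59 and 2262 CPM in free RNA. In CPM these GS_KO levels in members lay below free RNA, as did the summed hepatocyte identity genes. The free RNA share of a member's UMIs was not measured, so whether members express these genes was not tested. With an assumed amount of free RNA taken off, the log2 ratios were 5.68 for Saa1 and 5.39 for Lcn2. Control members held only 2 Saa1 UMIs and 1 Lcn2 UMI before anything was taken off. Their Saa1 level, 15.5 CPM, was already below the 74.5 CPM of control free RNA. The corrected ratios thus rest on few or no control UMIs and on the counts added to each sum. Whether a difference remains without free RNA was not tested.

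Urea cycle and pericentral genes were lower in GS_KO members. Of 8 urea cycle genes, 7 were lower (median log2 ratio -1.04) and 4 past 2-fold, beside 12% of all genes past 2-fold lower, and in the other barcodes 7 of 8 were lower with a median of -1.0. Of 21 pericentral genes, 19 were lower in members (median -0.86) and 7 past 2-fold, beside the same 12%. In the other barcodes 18 of 21 were lower (median -0.72) and 10 past 2-fold, beside 204 of all 2753 measured genes. The median over all measured genes was -0.05 in members and -0.03 in the other barcodes. All 12 measured mitochondrial genes were lower in GS_KO members (median -0.73), and ribosomal protein genes were lower in 58 of 67 (median -0.64). Leaving mitochondrial genes out of the CPM moved no recomputed value outside its counting interval, as given above. Their small share of UMIs means that this could shift a ratio only slightly. The part of the ribosomal protein genes was not tested.

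The genes highest in GS_KO members were Saa1, Lcn2, Cd74, Chka, Saa2, Col4a3, Mug2, Chrm3, Rnf125, Saa3, H2-Aa and Cyp3a59. Chrm3, a muscarinic acetylcholine receptor gene, stood at 116 CPM in control members and 1809 CPM in GS_KO members, and at 16.6 and 691 CPM in the other barcodes. Chka, choline kinase, stood at 31.0 and 1107 CPM in members, and at 41.9 and 985 CPM in the other barcodes. Cd74 and H2-Aa are antigen presentation genes of immune cells. Cd74 was at 0 UMIs in control members and 427 CPM in GS_KO members, at least 18.3-fold higher against a floor of 3 UMIs over the members, and it stood at 520 CPM in the other GS_KO barcodes. Free RNA held Cd74 at 24.8 CPM in control and 827 CPM in GS_KO, and H2-Aa, at 7.76 and 246 CPM in members, at 13.6 and 339 CPM, so neither GS_KO value in members is above free RNA. Chrm3 and Chka stood well above it, with 22.9 and 56.2 CPM in GS_KO free RNA. So did Naaladl2, a gene with little library difference, at 999 CPM in GS_KO members and 26.6 CPM in GS_KO free RNA. The summed hepatocyte identity genes went the other way, as given above. Standing above or below free RNA thus does not by itself set these genes apart. The genes lowest in GS_KO members were Cux2, Onecut1, Alas1, Fkbp5, Mfsd2a, Cyp4a10, Lpin1, Sema3e, Cyp2c39, Noct, Prlr and Homer2. Alas1, the first enzyme of heme synthesis, stood at 2825 CPM in control members and 224 CPM in GS_KO members (log2 ratio -3.63, -4.23 to -3.12). In the other barcodes Alas1 stood at 2668 and 219.5 CPM (-3.60). Cux2, a homeobox factor gene, gave 50 UMIs in control and 0 in GS_KO members, at least 17.9-fold lower. The other barcodes gave 495 and 0 Cux2 UMIs. Time of day and sex are not given in the sources used here, and Noct is known for a daily rhythm. Of 8 clock genes measured, 2 were past 2-fold higher in GS_KO members and 3 past 2-fold lower. Over all measured genes these shares were 13.7% and 12%. In the other barcodes 2 were past 2-fold higher and 5 lower, beside 292 and 204 of 2753 genes. Arntl, a clock gene, gave 0 UMIs in control and 19 in GS_KO members, and 4 and 265 in the other barcodes. Whether the time of day differed was not tested.

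For the 5 zonal genes the library difference in members was compared with that in other barcodes. Only 2 of the 5, Hal and Gls2, reached the count set for measured genes in control, and 4 did in GS_KO. Hsd17b6, Gldc and Etnppl fell below it in control, and Etnppl in GS_KO too. Hal was 4.93-fold higher in GS_KO members (log2 ratio 2.30, 1.73 to 2.96) and its ratio in other barcodes was 2.12, a difference between zones of 0.18 (-0.44 to 0.80). Hsd17b6 was 6.31-fold higher (2.66, 1.66 to 4.01), with a difference of 0.06 (-1.06 to 1.17). Neither difference was detectable at this depth.

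Gls2 was 2.58-fold lower in GS_KO members (log2 ratio -1.37, -2.27 to -0.57) and nearly level in other barcodes (-0.14), a difference of -1.23 (-2.06 to -0.40). This rested on the choice of markers and depth: without Ncam2 among the markers the difference was -0.22, and at a minimum of 1500 UMIs it was 0.07. Gldc was 1.94-fold higher in members (0.95, 0.34 to 1.62) and its ratio in other barcodes was 1.90, a difference of -0.94 (-1.60 to -0.28). Without Sds among the markers the difference was -0.25, and at 1500 UMIs 0.24. Etnppl was lower in GS_KO members (-3.47, -9.40 to -1.31), from 1 UMI, and in other barcodes (-4.04), and at 1500 UMIs its ratio in members was -0.68.

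**Figure D4:**
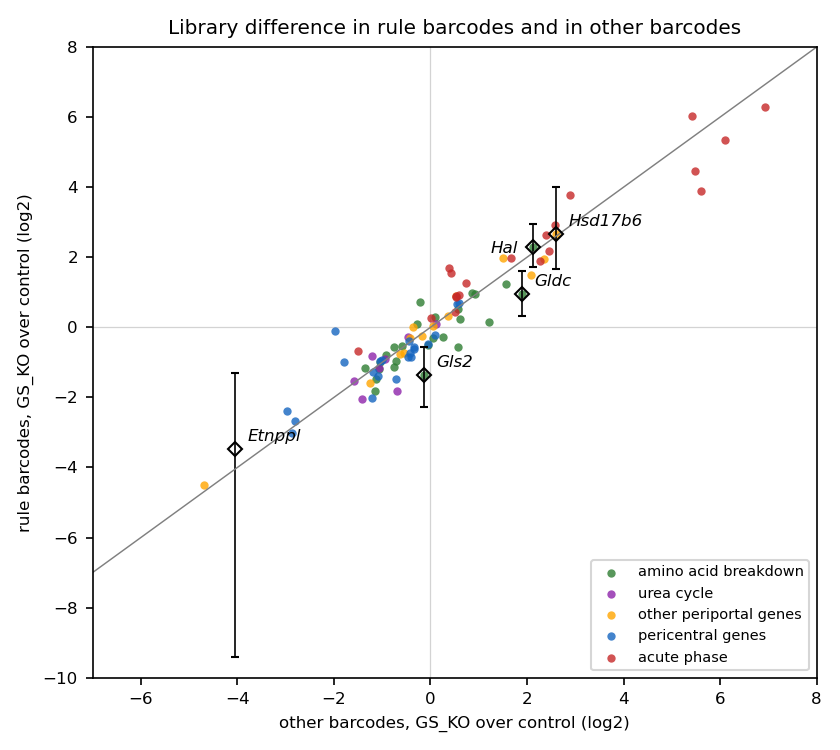
Log2 ratio GS_KO over control in rule barcodes (vertical) against other barcodes (horizontal) for measured genes of 5 lists and the 5 zonal genes (diamonds, exact intervals); the grey diagonal marks equal ratios. On each axis 19 of 20 measured acute phase genes lie above 0, and Gls2 (-1.37 in members, -0.14 elsewhere) and Gldc (0.95 and 1.90) lie below the diagonal.

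Over all 2005 genes measured in both libraries, 108 or 5.39% had a difference between zones past 2-fold. The highest were C6, Slc17a8, Zkscan3, Krcc1, Serpina10 and Nrp1, and the lowest Efna5, Cyp2c39, Kif5b, Cox5b, Uso1 and Kmt2e. C6, a terminal complement component, stood at 132 CPM in control members against 474 CPM elsewhere, and at 644 against 655 CPM in GS_KO, a difference of 1.79 (1.04 to 2.53). Cyp2c39, a cytochrome P450, stood at 504 against 620 CPM in control and at 43.4 against 194 CPM in GS_KO, a difference of -1.76 (-2.93 to -0.59). Nrp1, a co-receptor of semaphorins and VEGF, had a difference of 1.43 that fell to -0.08 without Ncam2 among the markers. These genes were picked as the ends of all genes measured.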

How the data were processed

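The authors deposited 1 matrix of raw UMI counts per library, whole numbers for 32285 genes per barcode, counted by Cell Ranger 8.0.0, per the file headers, and on mm10 per the submitters' processing notes. The choice of barcodes to deposit is not described by the labels or headers. The matrices hold 166037 control and 175937 GS_KO barcodes with 61635695 and 57973740 UMIs, and 1703 and 1834 barcodes reach 1000 UMIs. The members and gene lists were chosen with earlier results of these data known.

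UMIs were summed over members (128859 control, 138172 GS_KO) and over other barcodes (2053401 and 2305297) and scaled to CPM. Log2 ratios have 0.5 counts added to each sum. Intervals are exact Poisson for levels, conditional binomial for ratios, Clopper-Pearson for shares and Wald on 4 sums for differences between zones. Genes were named as list members or as the 12 highest and 12 lowest (6 between zones) on CPM + 20, with at least 10 UMIs expected in members. The ratios and intervals were tested on simulated data. Scripts ran on Python 3.11.15 with scipy 1.17.1, numpy 2.4.6, matplotlib 3.10.9 and pandas 2.3.3, and 15 alternative settings were tried. Promoters came from a table of RefSeq promoters, in which 5 of 6 genes looked up were matched, Gls2 not among them.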

Additional observations from a re-analysis of the deposited data

Results flagged for a closer look

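Serpina10, a protease inhibitor of coagulation, was lower in control members than in other control barcodes (log2 ratio -0.92) and higher in GS_KO members than in other GS_KO barcodes (0.60), with both counting intervals off 0. Kmt2e, a chromatin-associated gene, went the opposite way, at 0.54 in control and -0.93 in GS_KO. Both were picked for these values from the named and listed genes only, each library is 1 mouse, and the difference was not tested. Over all 2005 genes measured in both libraries, 9 were past 1.5-fold in opposite directions.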

How the results depend on the processing

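With 1 mouse per group, few members and a membership that most often rests on 3 marker UMIs, the values below limit what can be read from single genes. Of 300 values of the 5 zonal genes under 15 settings, 280 stayed inside the main counting interval, 17 left it and 3 changed sign. Of 1500 values of the other genes named, 1399 stayed inside, 94 left it, 26 of these at 500 UMIs and 13 with free RNA taken off, and 7 changed sign. Counts of genes past a fold follow the number of members and of genes measured. The cause of the other changes was not tested. No paired analysis was possible because each group is 1 library.

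The share of barcodes in the rule, control and GS_KO, was 1.77% and 1.34% at a minimum of 500 UMIs, 13.2% and 13.4% with at least 2 marker UMIs, 2.58% and 1.42% with at least 4, 3.46% and 1.25% without Ncam2, 1.94% and 2.94% without Sds, and 4.11% and 2.89% with barcodes thinned to 1000 UMIs. In GS_KO it was 7.35% at 1500 UMIs, 3.82% without Sult5a1 and 4.14% without Cryl1.

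Genes past 1.5-fold higher in members numbered 163 in control and 158 in GS_KO. They numbered 1000 and 753 at 500 UMIs, 21 and 67 at 1500 UMIs, 91 and 38 with at least 4 marker UMIs, 89 and 38 without Ncam2, 51 and 75 without Sds, 97 and 46 after thinning, and 246 in control with at least 2. Genes past 1.5-fold lower numbered 179 and 220. They numbered 589 and 534 at 500 UMIs, 72 and 95 at 1500 UMIs, 92 and 141 without Sds, and in GS_KO 56 with at least 4 marker UMIs, 56 without Ncam2 and 95 after thinning. Genes past 2-fold higher in GS_KO members numbered 378, and 222 at 1500 UMIs, 623 with at least 2 marker UMIs, 152 with at least 4, 187 without Ncam2 and 180 after thinning. Those past 2-fold lower numbered 330, and 131 at 1500 UMIs, 192 with at least 4 and 180 without Sds.

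At 1500 UMIs, with 19 control and 28 GS_KO members, the log2 ratio of members over others was 1.72 for Hal in GS_KO, and in control 1.02 for Gls2, 0.56 for Gldc and -0.46 for Etnppl. The library ratio in members was then -0.34 for Gls2, 2.13 for Gldc and -0.68 for Etnppl, and the difference between zones 0.84 for Hal, 0.066 for Gls2, 0.24 for Gldc and 3.28 for Etnppl. Etnppl in control was 1.73 with at least 2 marker UMIs. Hal in GS_KO was 1.06 with at least 4 and 1.14 without Sult5a1, and Hal in control was 1.89 with free RNA taken off. Without Ncam2, Gls2 was 1.49 inside GS_KO, -0.44 between libraries and -0.22 between zones. Without Sds, Gldc was 1.39 inside GS_KO and -0.25 between zones.

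The 7 sign changes among the other genes were these. The difference between zones was -0.03 for Krcc1 at 1500 UMIs and -0.080 for Nrp1 without Ncam2. Members over others was -0.064 for Tmem106b in control with at least 4 marker UMIs, -0.18 for Cers6 in GS_KO with at least 4 and -0.32 without Sult5a1, and 0.023 for Saa1 in GS_KO after thinning. The library ratio in members was 0.058 for Car5a with at least 4 marker UMIs.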
